A study of Mus musculus with 6 samples.

Results

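Mrgpra2a and Mrgpra2b are a pair of Mas-related G protein-coupled receptor genes that lie side by side on mouse chromosome 7. They are 2 of the 29097 genes in the deposited table, and they were chosen by measured values: Mrgpra2a was among the strongest rises in ligated mice, and Mrgpra2b is its near copy. Because that contrast chose them, the difference between ligated and control mice is given for these 2 genes as a description, with no test. The libraries came from wild-type male C57BL/6 mice that were 8 weeks old. In the Lig group (called LIP in the study, for ligation-induced periodontitis), the second molars were tied with silk for 14 d so that the gums became chronically inflamed, and Ctrl mice carried no ligature over the same time. From peripheral blood (PB), CD45+CD11b+Ly6G+ neutrophils were sorted, and each of the 3 libraries per group was made from neutrophils pooled from 5 mice. Libraries were prepared with Smart-seq2, a method for little RNA in which whole mRNA molecules are reverse transcribed and the cDNA is multiplied by PCR. The spread between libraries is therefore a spread between pools, not between single mice, and ligation is a local gum lesion whose effect was read in cells from the blood.

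Mas-related receptors form a large family in mice that is best known from sensory neurons, where several members trigger itch, and from mast cells, where Mrgprb2 responds to basic peptides. Mrgpra2a and Mrgpra2b are the members described in neutrophils, where they respond to defensins, antimicrobial peptides that epithelia secrete. Receptors of this family act through G proteins and phospholipase C beta, which releases calcium from internal stores, and cytokine release is one of the outputs described for the pair.

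In the GENCODE M21 annotation of the GRCm38 build, Mrgpra2a (ENSMUSG00000093973) spans chr7:47426328-47452139 and Mrgpra2b (ENSMUSG00000096719) spans chr7:47463806-47528862, both on the minus strand. Each main transcript has a short first exon, which holds the start codon, and a second exon with nearly all of the coding sequence. Mrgpra2b has a further annotated transcript with its own first exon of 69 bases at chr7:47528794-47528862, whose promoter is not shown here. The main spliced transcripts are 1240 bases long for Mrgpra2a and 1265 bases for Mrgpra2b. They differed at 3 of 1236 aligned bases, an identity of 99.8%. With positions counted from 1 at the first base of the start codon, and the Mrgpra2a base written first, the coding differences were A351G in codon 117 and G890A in codon 297, both of which change the encoded residue. The remaining difference, T1075C, lies in the 3′ untranslated region and is counted from the first base of the Mrgpra2a transcript. The 61 coding bases around each coding difference are shown because they are the letters by which a read can be told apart, with the differing base in capitals.
Mrgpra2a, coding bases 321 to 381: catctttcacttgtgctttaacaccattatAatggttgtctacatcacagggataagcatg
Mrgpra2b, coding bases 321 to 381: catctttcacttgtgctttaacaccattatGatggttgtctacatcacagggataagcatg
Mrgpra2a, coding bases 860 to 920: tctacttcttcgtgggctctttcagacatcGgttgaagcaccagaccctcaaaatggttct
Mrgpra2b, coding bases 860 to 920: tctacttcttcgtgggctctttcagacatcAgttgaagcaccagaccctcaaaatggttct

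The distance between the differing bases limits what a read of 150 bases can show. Of the 1091 stretches of 150 bases in the Mrgpra2a transcript, 661 (60.6%) occur unchanged in Mrgpra2b, and these are 59.2% of the 1116 stretches of Mrgpra2b. The longest run shared by both transcripts was 538 bases. These stretches stand for single reads. The libraries were sequenced as read pairs, so a mate can cover a differing base that the other read misses. How reads that match both genes were handled is not given in the sources used here. If they were divided between the genes, each gene's own level is less certain than the level of the pair. If they were dropped or counted for both genes, the level of the pair is uncertain as well. The other family members that were aligned are more distant. Mrgpra9, whose identity to Mrgpra2a was 87.1% in its closer transcript, shared no run longer than 92 bases with it, and no other gene compared shared an unbroken stretch of 150 bases.

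**Figure D1:**
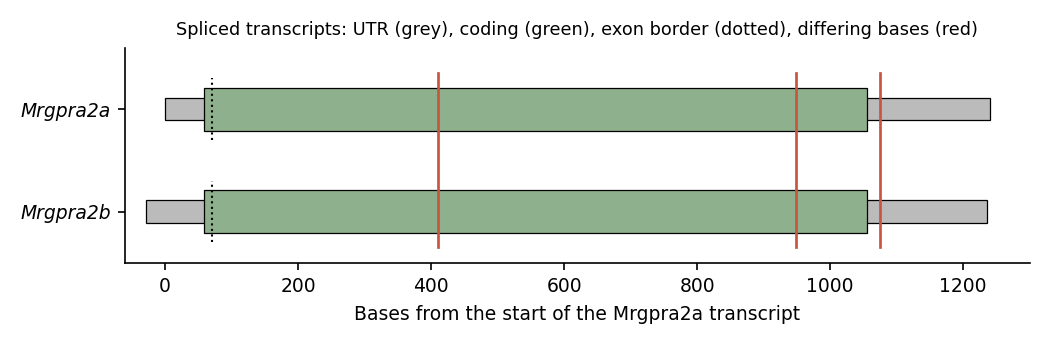
Spliced transcripts of Mrgpra2a and Mrgpra2b drawn to scale in bases from the start of the Mrgpra2a transcript, with untranslated parts in grey, the 996 coding bases in green, the exon border dotted and differing bases as red lines. The 3 differences lie at bases 410, 949 and 1075, so the stretch between the first and the second is the longest without a difference.

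The sequence before the genes was also shared. In RefSeq (GRCm38.p6), the 250 bases before the start of Mrgpra2a (chr7:47452165-47452414, minus strand) and those before Mrgpra2b (chr7:47489583-47489832, minus strand) differed at 0 bases. A single sequence is shown for both genes because it is the same in both. It holds no capitals because none of the 7 motifs searched on both strands was found in it.
Mrgpra2a and Mrgpra2b, 250 bases before the start: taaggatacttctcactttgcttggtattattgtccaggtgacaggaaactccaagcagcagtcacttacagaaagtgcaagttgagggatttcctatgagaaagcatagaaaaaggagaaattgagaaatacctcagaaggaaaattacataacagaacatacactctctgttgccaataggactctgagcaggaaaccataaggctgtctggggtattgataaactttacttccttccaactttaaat
The motifs were PU.1 (GAGGAAG, in 10.6% of 32851 mouse promoters over the 250 bases before the start), C/EBP (TTGCNNAA, 9.56%), the STAT site (TTCNNNGAA, 7.02%), the interferon-response element (ISRE, 2.98%), NF-kappaB (17.6%), AP-1 (TGANTCA, 6.75%) and the TATA box (TATAAA, 12.4%). The absence of a match says only that these letters are not in the window. By comparison, the Mrgpra9 promoter was 81.5% identical to that of Mrgpra2a over 233 aligned bases.

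Both receptors were readily measured in the Ctrl libraries and stood higher in every Lig library. Mrgpra2a was counted with 1474, 1771 and 1125 reads in Ctrl replicates 1 to 3 and with 7523, 8272 and 7194 reads in Lig replicates 1 to 3. Mrgpra2b was counted with 3358, 3607 and 2953 reads in the Ctrl libraries and with 16489, 17222 and 14833 reads in the Lig libraries. The lowest Lig library lay above the highest Ctrl library for both genes, and Ctrl replicate 3 was the lowest of all for both. No overlap of this kind, with every Lig library above every Ctrl library, was present in 30.3% of the 10433 genes tested, and since the contrast chose the pair, nothing is read from it.

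On the FPKM scale, which divides reads by gene length and library total, Mrgpra2a stood at 20.7, 24.2 and 16.0 in the Ctrl libraries and at 100.03, 109 and 103 in the Lig libraries. Its mean FPKM was 20.3 ± 4.12 (SD, n = 3) in Ctrl and 104 ± 4.78 (SD, n = 3) in Lig. Mrgpra2b stood at 43.9, 45.8 and 39.0 FPKM in the Ctrl libraries and at 204, 212 and 197 FPKM in the Lig libraries, with means of 42.9 ± 3.52 and 204 ± 7.37 (SD, n = 3 each). The Lig libraries lay close together for both genes, and the Ctrl spread of Mrgpra2a was wide for its level. In rank, Mrgpra2a moved from between place 1764 and place 2516 of the 10433 genes tested in the Ctrl libraries to between place 423 and place 450 in the Lig libraries. Mrgpra2b moved from between place 937 and place 1076 to between place 242 and place 259.

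**Figure D2:**
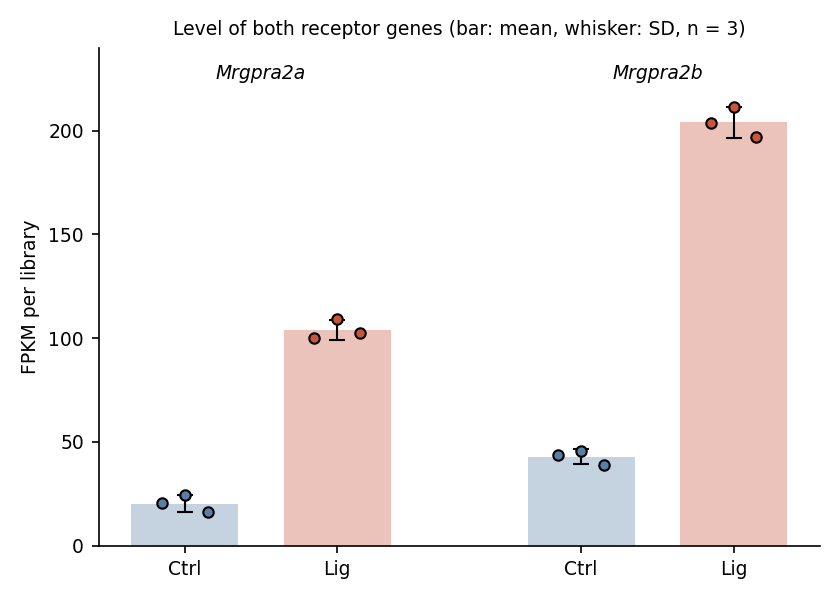
FPKM of Mrgpra2a and Mrgpra2b in the 3 Ctrl (blue) and 3 Lig (red) libraries, with bars at the group mean, whiskers at 1 SD and a point per library. The Ctrl points of Mrgpra2a lie between 16.0 and 24.2 and its Lig points between 100.03 and 109, and those of Mrgpra2b lie between 39.0 and 45.8 and between 197 and 212.

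The fitted change was of like size for both. After TMM normalization, which scales libraries on the bulk of genes rather than on their totals, the log2 fold change of Mrgpra2a was 2.66 with a standard error (SE) of 0.165, or 6.33-fold, and its TMM-scaled CPM (reads relative to library size) went from 24.4 ± 5.15 to 155 ± 6.61 (SD, n = 3 each). The log2 fold change of Mrgpra2b was 2.56 (SE 0.113), or 5.88-fold, and its CPM went from 55.5 ± 4.82 to 327 ± 11.9 (SD, n = 3 each). With the reads of both summed to a single feature, the log2 fold change was 2.59 (SE 0.119). This sum does not depend on how shared reads were divided between them, provided that each was counted once. Mrgpra2a ranked 30 and Mrgpra2b ranked 41 among the 10433 genes ordered by log2 fold change. Just above Mrgpra2a stood Svip at 2.68 and just below it Lrg1 at 2.66, and Mrgpra2b lay between Stfa2 at 2.56 and C1rl at 2.55. Scaled on library totals instead, the values were 2.34 for Mrgpra2a and 2.24 for Mrgpra2b, closer to the ratio of the FPKM means.

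The balance between the copies differed less than their levels. Mrgpra2a held 30.5%, 32.9% and 27.6% of the reads of the pair in the Ctrl libraries and 31.3%, 32.4% and 32.7% in the Lig libraries. The groups overlapped, and the Ctrl libraries were further apart than counting error, with 95% Wilson intervals of 31.7% to 34.2% in Ctrl replicate 2 and of 26.2% to 29.0% in Ctrl replicate 3. These intervals cover counting error only, since amplified reads are not independent molecules. Per length, the FPKM of Mrgpra2a was 0.47 ± 0.0591 of that of Mrgpra2b in Ctrl and 0.51 ± 0.0166 of it in Lig (SD, n = 3 each). The log2 of this ratio was 0.12 higher in Lig, with an SD within groups of 0.134, and it was 0.03 higher without Ctrl replicate 3 and 0.21 higher without Ctrl replicate 2. Mrgpra2b was the more abundant copy in all 6 libraries.

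Markers of cell types also differed between the groups. Of the 18 mature neutrophil genes listed, 18 were called higher in Lig by edgeR's quasi-likelihood test at a Benjamini-Hochberg adjusted p under 0.05, with a median log2 fold change of 1.85 against -0.09 for all genes tested. Their summed CPM lay between 15663 and 17340 in Ctrl and between 60144 and 65012 in Lig. Of all genes tested, 26.5% were called higher and 27.2% lower. In the other direction, 9 of 9 B cell markers (median log2 fold change -2.59, summed CPM 17630 to 19650 in Ctrl and 3706 to 3721 in Lig) and 8 of 8 T cell markers (median -2.41, summed CPM 502 to 550.0 and 106 to 141) were called lower. So were 8 of 8 erythroid markers (median -3.10), whose summed CPM was 129750 to 138112 in Ctrl and 17589 to 18319 in Lig. In the direction of the pair, 6 of 6 platelet markers (median 1.24, summed CPM 871 to 1113 and 2315 to 2725) and 7 of 7 monocyte markers (median 1.06, summed CPM 546 to 653 and 1310 to 1424) were called higher, as were 4 of 7 tested genes of immature neutrophils (median 0.39, summed CPM 2272 to 2746 and 4052 to 4273) and 2 of 3 of eosinophils (median 0.81, summed CPM 27.2 to 35.3 and 54.5 to 73.8). Of the markers of basophils and of mast cells, the latter being cells in which Mrgprb2 is known, 0 of 5 tested were called in either direction. Their summed CPM was 18.7 to 23.6 in Ctrl and 25.4 to 33.7 in Lig. At an unadjusted p under 0.05 edgeR gave 1 of the 5 (Prss34, lower), DESeq2 called 0 and limma called 1, the same gene. None of the markers tested had a log2 fold change above that of Mrgpra2a or Mrgpra2b, which this contrast chose. In bulk samples, fewer cells of a type and less RNA per cell cannot be told apart, and the part of the other cell types in the levels of the pair was not tested.

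Measured against the mature neutrophil genes, the pair was still higher in Lig. The CPM of Mrgpra2a, as log2 relative to the geometric mean of the 18 genes, was -4.02, -3.75 and -4.44 in the Ctrl libraries and -3.26, -3.23 and -3.23 in the Lig libraries. For Mrgpra2b the values were -2.83, -2.73 and -3.05 in Ctrl and -2.13, -2.17 and -2.19 in Lig. The groups did not overlap for either gene, and the differences were smaller than on the scale of all genes. The share of all genes without overlap on this scale was not computed. Since the contrast chose the pair, nothing is read from it. Fitted with this scaling, the log2 fold change was 0.80 for Mrgpra2a and 0.70 for Mrgpra2b, while the median of all genes moved to -1.95.

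The size of this remainder depended on the neutrophil gene. For both Mrgpra2a and Mrgpra2b, the mean log2 ratio of reads was higher in Lig against each of the 18 genes, and the Lig libraries stood wholly above the Ctrl libraries against 15 of them. How many of all genes would do the same was not computed, and these counts are a description. For Mrgpra2a, the difference in log2 ratio was smallest against Mmp8, the neutrophil collagenase, at 0.17, and its median over the 18 genes was 0.82. For Mrgpra2b it was also smallest against Mmp8, at 0.05, with a median of 0.70. Per 1000 reads of Ly6g, the gene whose product was used in the sort, Mrgpra2a had 1457, 1629 and 1157 reads in Ctrl and 3483, 3006 and 2796 reads in Lig. Per 1000 reads of Itgam, which encodes CD11b, Mrgpra2a had 185, 402 and 143 reads in Ctrl and 380, 449 and 397 reads in Lig, so that Ctrl replicate 2 lay inside the Lig range. The groups also overlapped against Mmp8 and against Stfa2l1, a stefin gene of neutrophils.

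**Figure D3:**
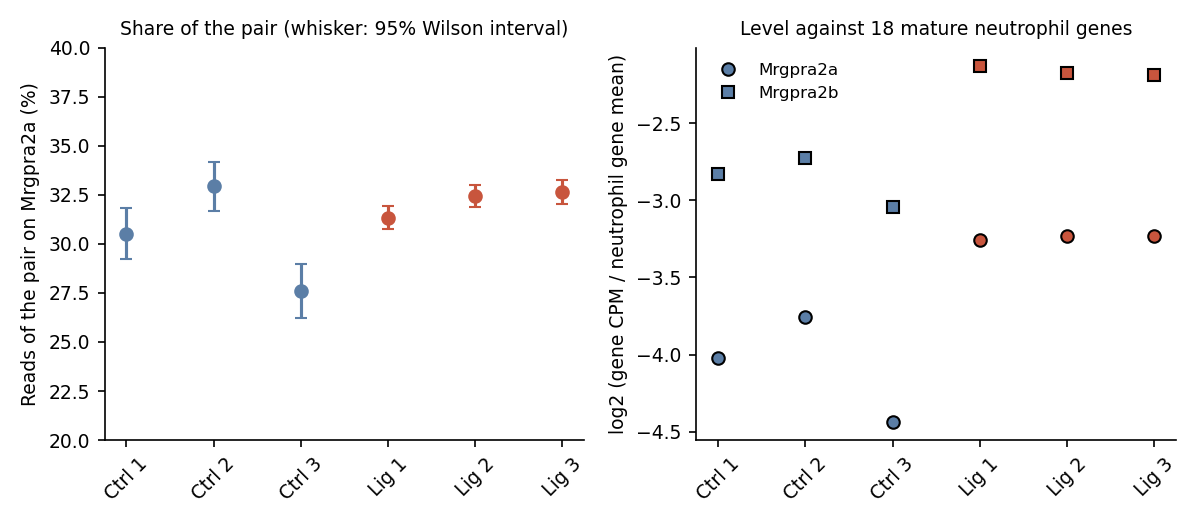
Left, the percentage of the reads of the pair that were counted on Mrgpra2a in each library, with 95% Wilson intervals; the axis runs from 20 to 40%. Right, log2 of the CPM of Mrgpra2a (circles) and Mrgpra2b (squares) relative to the geometric mean of 18 mature neutrophil genes. The shares overlap between Ctrl (blue) and Lig (red), whereas the Lig points on the right lie above the Ctrl points of the same gene.

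Only 4 other members of the family had a row, and all 4 were scarce in these libraries. Members without a row have no value here. Mrgpre, an orphan member, had 359, 179 and 177 reads in Ctrl and 0, 0 and 66 reads in Lig. Mrgpra1 had 24 reads in Lig replicate 2 and 0 in the other libraries, and Mrgpra6 had 4 reads in Lig replicate 3 alone. Mas1, the receptor for which the family is named, had 3 reads in Ctrl replicate 2 alone. A count of 0 allows up to 3 reads. All 4 had a mean FPKM under 1 and were not tested.

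Of 15 other genes with a row within 500000 bases of the pair on chromosome 7, 3 reached a mean FPKM of 1. Their log2 fold changes were smaller than those of the pair, which this contrast chose. Spty2d1, which encodes a histone chaperone, had FPKM values of 17.3, 13.03 and 14.6 in Ctrl and of 16.1, 15.8 and 16.4 in Lig, with a log2 fold change of 0.42 (SE 0.122, adjusted p = 0.0154 by edgeR's quasi-likelihood test with Benjamini-Hochberg adjustment). Its FPKM groups overlapped. The call was lost with library totals (0.09, adjusted p = 0.546), with limma on FPKM (adjusted p = 0.503), with a mean FPKM minimum of 5 (0.25, adjusted p = 0.102) and without Ctrl replicate 3 (adjusted p = 0.0562), and Spty2d1 was called lower with scaling on the neutrophil genes (-1.44). Tmem86a, which encodes a lysoplasmalogenase, had a log2 fold change of 0.66 (SE 0.312) and the unnamed gene Gm32031, which overlaps Spty2d1 on the other strand, one of 0.11 (SE 0.389), and neither was called by the same test (adjusted p = 0.0955 and 0.83), although Tmem86a was called lower with that scaling (-1.19). Gm7255, a pseudogene whose span reaches into that of Mrgpra2b on the same strand and which is 82.1% identical to Mrgpra2a, had at most 20 reads in any library.

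Transcripts of the peptides that can act on such receptors were scarce apart from Camp, which encodes the mouse cathelicidin. Camp had FPKM values of 373, 436 and 401 in Ctrl and of 412, 458 and 410.3 in Lig. Its log2 fold change was 0.39 (SE 0.105, adjusted p = 0.00984 by edgeR's quasi-likelihood test with Benjamini-Hochberg adjustment), it was not called with library totals (0.07, adjusted p = 0.57), limma on FPKM (0.08, adjusted p = 0.43) or a mean FPKM minimum of 5 (0.22, adjusted p = 0.0601), and it turned to -1.47 with scaling on the neutrophil genes. The other 8 ligand genes with a row, all beta-defensins, had few reads, of which Defb40 had the most with 11, 17 and 5 reads in Ctrl and 29, 23 and 33 reads in Lig. None of these 8 reached a mean FPKM of 1. The epithelium that secretes defensins was not part of the sample.

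The pair was set beside the other receptors by which neutrophils sense their surroundings. Of 70 receptor genes listed, 66 had a row and 50 were tested, and 34 of these were called higher and 8 lower in Lig by edgeR's quasi-likelihood test, against 26.5% and 27.2% of all genes tested. With scaling on the neutrophil genes the counts were 2 higher and 30 lower, where 0.46% of all genes tested were called higher and 89.4% lower. The median log2 fold change of the 50 was 1.14. None of them exceeded Mrgpra2a, and Cxcr1 was the single gene above Mrgpra2b. This order is a description, because the pair was chosen by the same contrast. Cxcr1 and Cxcr2 encode the receptors for neutrophil-attracting CXC chemokines. Cxcr1 stood at 3.69, 4.70 and 5.44 FPKM in Ctrl and at 25.4, 23.5 and 18.5 FPKM in Lig, with a log2 fold change of 2.59 (SE 0.233, edgeR adjusted p = 7.46e-06). Cxcr2 went from 159 ± 4.67 to 538 ± 14.3 FPKM (SD, n = 3 each; log2 fold change 2.07, SE 0.0766). With the neutrophil scaling, Cxcr1 (0.74) and Cxcr2 (0.21) were the receptors called higher. Cxcr2 is itself one of the 18 genes used for that scaling.

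All 4 tested receptors for formyl peptides and complement were called higher, as were 26.5% of all genes tested. Among the 4 were Fpr1 (2.10, SE 0.115) and Fpr2 (1.88, SE 0.131), which sense bacterial peptides, and C5ar1 (1.62, SE 0.0753), the receptor of the complement fragment C5a. These values are log2 fold changes, and that of C5ar1 turned to -0.24 with scaling on the neutrophil genes, while those of Fpr1 (0.24) and Fpr2 (0.03) were then not called. Ltb4r1, the leukotriene B4 receptor, rose by 1.59 (SE 0.125) and turned to -0.26 with that scaling. P2ry13, a receptor of ADP, rose by 2.13 (SE 0.148), and was at 0.27 and not called with that scaling. Lymphocyte homing receptors stood at the other end. Ccr7 fell by 2.89 (SE 0.14), from 406 ± 46.2 to 44.3 ± 6.83 FPKM (SD, n = 3 each), and S1pr1 fell by 2.29 (SE 0.235).

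In order of level, the pair moved up among the receptors. Ranked per length by mean FPKM with the other 66, Mrgpra2b was at place 12 in Ctrl and at place 8 in Lig. Mrgpra2a moved from place 20 to place 11. Part of this move came from receptors that fell in Lig. Both genes passed Ccr7, S1pr1 and S1pr4, whose log2 fold changes were -2.89, -2.29 and -0.56. Mrgpra2a also passed Ptafr (1.44) and Ltb4r1 (1.59), which rose. Because the contrast chose the pair, the move is a description. Mrgpra2a made up 0.778% of the summed receptor FPKM in Ctrl and 2.05% of it in Lig, and Mrgpra2b made up 1.64% and 4.03%. In Lig, Mrgpra2b lay below Adgre5 (218 to 238 FPKM), with no overlap. Mrgpra2a overlapped Fpr2 (102 to 122 FPKM) just above it and did not overlap Ltb4r1 (83.7 to 92.7 FPKM) just below it. In Ctrl, Mrgpra2b overlapped its neighbours S1pr1 (42.5 to 51.6 FPKM) and Ptafr (38.1 to 41.7 FPKM), the receptor of platelet-activating factor. Mrgpra2a in Ctrl lay below Gpr183 (25.4 to 29.1 FPKM) and overlapped Gpr65 (17.96 to 22.1 FPKM), a proton-sensing receptor.

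**Figure D4:**
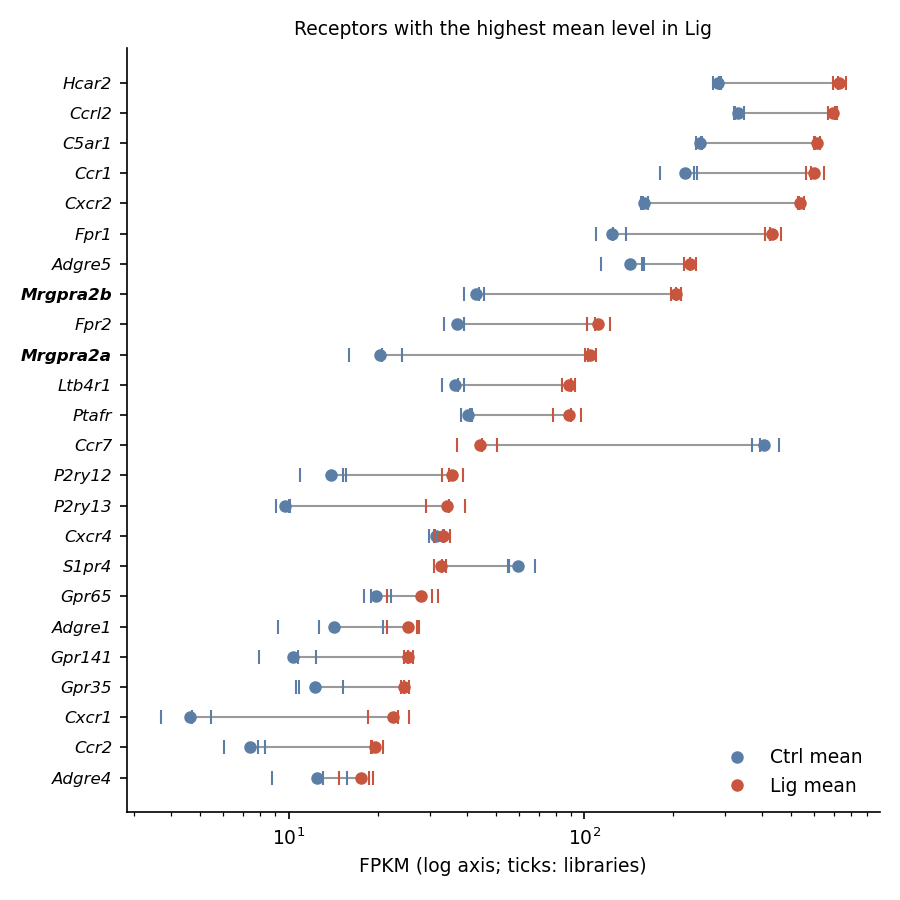
Receptors with the highest mean FPKM in Lig (24 of the first 25, with 1 not reported here), on a log axis, with Ctrl means as blue and Lig means as red circles and each library as a tick. Mrgpra2b is at place 8 and Mrgpra2a at place 11 in Lig, and Ccr7 is the receptor with the largest shift to the left.

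The genes through which such receptors signal moved less than the pair. Since the contrast chose the pair for its rise, nothing is read from that order. Of 55 genes listed, 54 had a row and 40 were tested, and 21 of these were called higher, 4 lower and 15 in neither direction by edgeR's quasi-likelihood test, with a median log2 fold change of 0.65, against 26.5% higher and 27.2% lower of all genes tested. With scaling on the neutrophil genes, 0 were called higher and 37 lower, beside 0.46% and 89.4% of all genes tested. Gnai2, the main inhibitory G alpha subunit of leukocytes, stood at 216, 261 and 221 FPKM in Ctrl and at 379, 393 and 369 FPKM in Lig, with a log2 fold change of 1.01 (SE 0.0959, edgeR adjusted p = 1.06e-05) that turned to -0.84 with the neutrophil scaling. The G alpha subunits of the phospholipase-coupled class were much scarcer. Gnaq went from 1.51 ± 0.426 to 2.18 ± 0.321 FPKM (SD, n = 3 each; log2 fold change 0.84, SE 0.278, edgeR adjusted p = 0.0268), a call that was lost without Ctrl replicate 2 (0.66, adjusted p = 0.0739) and without Lig replicate 3 (0.71, adjusted p = 0.091). The call was also lost with library totals (0.51, adjusted p = 0.141), with limma at pseudocounts of 1 (0.35, adjusted p = 0.149) and 0.1 (0.53, adjusted p = 0.16) and with no filter (0.87, adjusted p = 0.0647), and Gnaq turned to -1.01 with the neutrophil scaling. Gnaq overlaps the antisense gene Gm10819. Gna11 fell by 1.41 (SE 0.427, edgeR adjusted p = 0.0176), a call that was lost with no filter (adjusted p = 0.0828), without Ctrl replicate 1 (adjusted p = 0.0617) and without Ctrl replicate 2 (adjusted p = 0.0678). Gna15, the promiscuous subunit of blood cells, was at -0.56 (SE 0.339, edgeR adjusted p = 0.186) and was not called. It was called lower with library totals (-0.88, adjusted p = 0.0479), with limma at pseudocounts of 1 (-0.67, adjusted p = 0.0222) and 0.1 (-0.87, adjusted p = 0.0251) and with the neutrophil scaling (-2.41, adjusted p = 6.92e-05).

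Further down the pathway, neither tested phospholipase C beta gene was called by edgeR with TMM scaling, DESeq2 or limma, and at an unadjusted p under 0.05 edgeR gave 0 and DESeq2 gave 1 of the 2 (Plcb3). Plcb2, the main form in neutrophils, had FPKM values of 5.85, 5.91 and 5.39 in Ctrl and of 4.999, 6.54 and 5.28 in Lig, and its log2 fold change of 0.28 (SE 0.157, edgeR adjusted p = 0.156) was -0.04 with library totals. With the neutrophil scaling, Plcb2 was called lower (-1.58, adjusted p = 3.77e-06). Of 8 genes for calcium release and entry, 3 were called higher and 2 lower, near the shares of all genes tested. Itpr3, a receptor for inositol trisphosphate, fell by 2.16 (SE 0.262), from 2.47 ± 0.203 to 0.446 ± 0.107 FPKM (SD, n = 3 each). Of 7 tested Rgs genes, whose products shorten G protein signals, 6 were called higher, beside 26.5% of all genes tested. Among the 6 were Rgs3 (1.71, SE 0.131) and Rgs18 (1.45, SE 0.107), the latter at 52.5 ± 1.37 FPKM in Ctrl and 116 ± 10.5 FPKM in Lig (SD, n = 3 each). Arrb2, which encodes the beta-arrestin that desensitizes and internalizes receptors, rose by 1.38 (SE 0.137), and the G gamma subunit gene Gng12 rose by 1.69 (SE 0.122). With the neutrophil scaling Rgs3 was at -0.14, Rgs18 at -0.41, Arrb2 at -0.47 and Gng12 at -0.16.

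**Figure D5:**
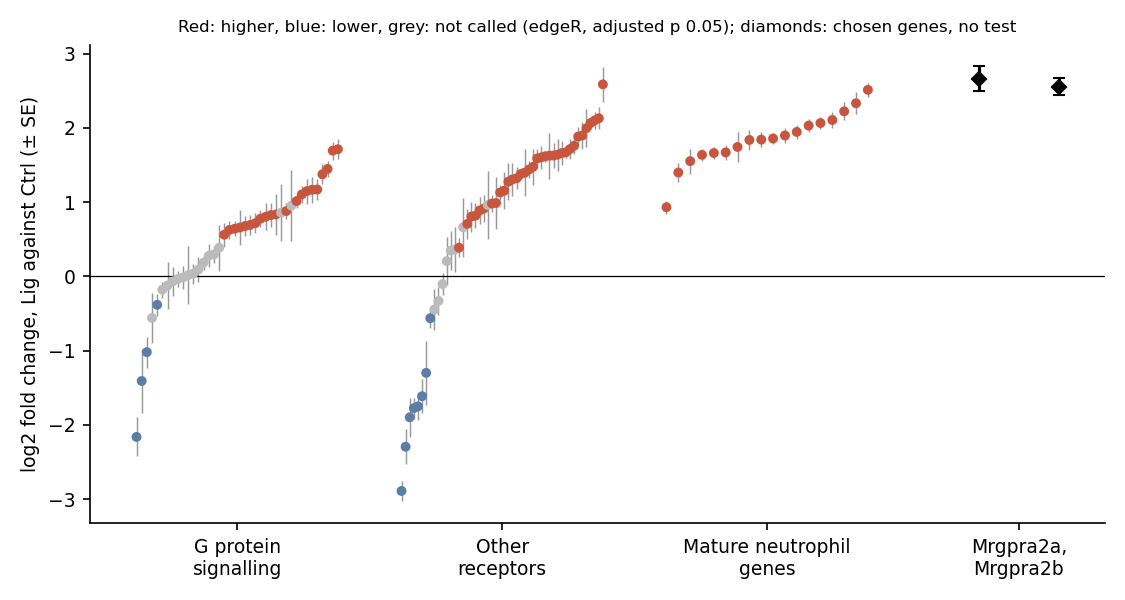
Log2 fold change of Lig against Ctrl (TMM scaling, whiskers 1 SE) for the tested genes of 3 lists, ordered within each list, with genes called higher in red, lower in blue and not called in grey. Mrgpra2a (2.66) and Mrgpra2b (2.56), chosen by this contrast and drawn as diamonds with no test, lie above the tested signalling genes and above the receptors other than Cxcr1 (2.59).

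Both cytokine genes examined were called higher, as were 26.5% of all genes tested. Whether they were outputs of the pair here was not tested. Il1b, which encodes interleukin-1 beta, was at 1779, 1999 and 1800 FPKM in Ctrl and at 5244, 5692 and 5905 FPKM in Lig, with a log2 fold change of 1.901 (SE 0.0751, edgeR adjusted p = 5.76e-08) that was 0.05 and not called with the neutrophil scaling (adjusted p = 0.608). It overlaps the antisense gene Il1bos, whose reads cannot be told apart from its own without strand. Cxcl10, a chemokine that attracts T cells, was at 7.26, 6.41 and 9.59 FPKM in Ctrl and at 17.6, 17.9 and 16.8 FPKM in Lig, with a log2 fold change of 1.48 (SE 0.19, edgeR adjusted p = 9.62e-05) that turned to -0.37 with the neutrophil scaling. Both changes were smaller than those of Mrgpra2a and Mrgpra2b in the same libraries, from which the pair was chosen.

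Across the 6 libraries, the gene whose pattern was nearest to that of Mrgpra2a was Mrgpra2b. Likeness was measured as the root mean square difference of log2(CPM + 1), centred on each gene's mean, among 5325 other genes whose mean FPKM was 5 or more. The difference was 0.114 for Mrgpra2b, whose reads can in part not be told apart from those of Mrgpra2a. It was 0.122 for Lrg1, which encodes a leucine-rich glycoprotein stored in neutrophil granules, 0.135 for Mmp8, 0.147 for Snai1, a transcription factor gene, and 0.148 for Tarm1, which encodes an activating receptor of myeloid cells. Lrg1 was far more abundant than the pair, at 680 ± 45.6 FPKM in Ctrl and 3474 ± 36.4 FPKM in Lig, whereas Snai1 (8.83 ± 0.609 and 48.5 ± 0.935 FPKM) and Tarm1 (11.9 ± 1.68 and 52.4 ± 3.21 FPKM) were scarcer (SD, n = 3 each). These genes were found by the contrast that chose the pair, so their likeness to it and the size of their changes are a description. Mmp8 is also one of the 18 mature neutrophil genes counted above.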

How the data were processed

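PB neutrophils of 3 Ctrl and 3 Lig pools were sequenced as 150-base read pairs. For every gene the authors deposited the raw count of reads in each library, not normalized, together with the FPKM that they derived from it by gene length and library total, and GRCm38 coordinates. The submitters' processing notes name cutadapt 1.9 and FastQC. The aligner, the counting tool, the handling of reads that match several genes and the use of strand are not given in the sources used here. The ratio of FPKM to counts of Mrgpra2b against Mrgpra2a gave a length ratio of 1.0754 to 1.076 by library, and the union of annotated exons gave 1.0758. Total counts per library lay between 52186555 and 57262379. Library pairs within a group differed by a chi-square per gene of 39.1 to 77.0, so no pair lay within sampling noise.

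For 50 gene names on several rows, only the row of higher mean FPKM entered. The 10433 genes whose FPKM averaged 1 or more over the 6 libraries entered edgeR 4.0.16 (R 4.3.3) and its quasi-likelihood test on the deposited counts after TMM normalization, and p-values were adjusted over all of them by the Benjamini-Hochberg method at a threshold of 0.05. The common biological coefficient of variation was 0.265. The script was tested on simulated data. Alternatives were library totals, median-of-ratios factors, DESeq2 1.42.0, limma 3.58.1 on log2(FPKM + 1) and log2(FPKM + 0.1), other filters, scaling on the mature neutrophil genes, a replicate block and leaving out each library. Same-numbered libraries come from different mice, and the correlations of their deviations from the group means were -0.01, 0.05 and 0.02, so the numbers do not pair the samples. Sequences were aligned with Biopython 1.88, from GENCODE M21 transcripts and RefSeq promoters.

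The members and the gene lists were chosen with earlier results of these data known. Named are the pair, other family members with a read, the 6 largest called changes of the receptor and signalling lists, 10 genes of these lists fixed by name, Il1b and Cxcl10, ligand genes and genes near the pair whose FPKM averaged 1 or more, and the 5 genes with the pattern nearest to Mrgpra2a. Genes named as neighbours in an order, as cell markers, or as the ligand gene with the most reads were added after their values were seen. Values of a few other listed genes are not reported here.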

Additional observations from a re-analysis of the deposited data

How the results depend on the processing

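Mrgpra2a and Mrgpra2b stayed higher in Lig under every alternative run. Their log2 fold changes were 2.34 and 2.24 with library totals, 2.32 and 2.23 with limma on log2(FPKM + 1), 2.37 and 2.25 with log2(FPKM + 0.1), and 0.80 and 0.70 relative to the mature neutrophil genes (the neutrophil scaling). Mrgpra2b was at 2.39 with a mean FPKM minimum of 5. Leaving out each library in turn gave 2.52 to 2.84 for Mrgpra2a and 2.49 to 2.64 for Mrgpra2b. The median of all genes was -0.42 with library totals, -0.31 and -0.40 with limma, and -1.95 with the neutrophil scaling.

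Of all genes, 2764 were called higher and 2839 lower. With that minimum, where fewer genes were tested (5326), 3636 were called, 1768 higher and 1868 lower, and with the neutrophil scaling 9371, 48 higher and 9323 lower. The signalling list had 7 lower calls with library totals and with both limma fits, 2 with no filter and with the minimum of 5, 37 (and 0 higher) with the neutrophil scaling, and 2 to 3 without a library. The receptor list had 2 higher and 30 lower calls with the neutrophil scaling. The cause of these shifts was not tested.

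With the replicate block, 5546 genes were called, Mrgpra2a was at 2.68 and Mrgpra2b at 2.56, the signalling list had 22 higher and 3 lower calls, and the receptor list 33 and 8. With the neutrophil scaling, these log2 fold changes turned: Cxcl10 -0.37, C5ar1 -0.24, Ltb4r1 -0.26, Gnai2 -0.84, Gnaq -1.01, Plcb2 -1.58, Arrb2 -0.47, Rgs3 -0.14, Gng12 -0.16, Rgs18 -0.41, Camp -1.47, Spty2d1 -1.44, Gm32031 -1.74 and Tmem86a -1.19. With library totals and the limma fits at pseudocounts 1 and 0.1, Plcb2 was at -0.042, -0.030 and -0.036 and Gm32031 at -0.21, -0.18 and -0.23, and without a library Gm32031 ranged from -0.20 to 0.27. With 3 pools per group, depth is not the limit for the pair. The other family members and the defensins had a mean FPKM under 1 and were not tested. Mrgpra6 and Mas1 lie near the floor of 3 reads, whereas Mrgpre in Ctrl and Defb40 in Lig stood above it.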
